A study of Homo sapiens with 8 samples.

Results

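Of the genes in this count table, 10 genes of WNT signalling were selected by symbol and followed across 4 culture conditions of the KYSE150 line, which derives from a human esophageal squamous cell carcinoma. They are the ligands WNT5A, WNT7A, WNT7B and WNT10A, the secreted proteins DKK1 and DKK3, the membrane ubiquitin ligase RNF43, the DNA-binding factors TCF7 and LEF1, and the scaffold AXIN2. All 10 were found among the 61517 genes listed. The expression filter kept 15554 genes, and 7 of the 10 were among them. AXIN2, LEF1 and WNT5A had too few reads to be tested. The 10 genes were chosen with results of these same libraries known, so their values are given as a description and without p-values. Where a member is said to pass a threshold or to keep or lose a call, that is description too and no independent test.

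Polyadenylated RNA was sequenced from 8 libraries, 2 in each of 4 groups. All groups were cultures of the one line KYSE150, untreated in normoxia, untreated in hypoxia, treated in hypoxia with sodium oxamate, or treated in hypoxia with sodium oxamate together with NALA, which was read as sodium lactate because the treatment protocol names that salt. Oxamate inhibits lactate dehydrogenase, the enzyme that makes lactate from pyruvate, and lactate supplies its product from outside. Oxygen level, dose and duration are not given in the labels used here. Whether the 2 libraries of each condition were grown as separate cultures is not stated in the labels, and the p-values below then reflect the spread of these libraries alone, possibly a technical one.

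WNT ligands are lipid-modified secreted proteins that bind Frizzled receptors and the co-receptors LRP5 and LRP6. In the canonical branch this stops a cytoplasmic complex of AXIN, APC and GSK3 from marking beta-catenin for destruction, and beta-catenin then enters the nucleus and activates genes together with TCF and LEF factors. DKK1 blocks the branch from outside the cell by binding LRP5 and LRP6, RNF43 removes Frizzled from the cell surface, and DKK1, RNF43, AXIN2, LEF1 and TCF7 are themselves known as target genes of the pathway in several tissues. DKK1 is abundant in many squamous carcinomas.

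Sequences upstream of a transcription start of DKK1 and of RNF43 are shown because these were the members with the widest ranges over the 4 groups. They are from RefSeq (GRCh38.p14) and are printed 5′ to 3′ on the strand of the gene in lower case. Capitals mark matches on either strand to the TCF/LEF core (CTTTGA or CTTTGT) and to the HIF core (ACGTG or GCGTG), the letters bound by the hypoxia-inducible factors. The DKK1 run is the 250 bases before the start, chr10:52314031-52314280 on the plus strand. The RNF43 run is 189 bases of chr17:58417596-58417784 on the minus strand, upstream of 1 of 2 starts listed for the gene. The 61 bases between this run and that start, which are annotated as exon, are left out, and positions are counted from the start.
DKK1: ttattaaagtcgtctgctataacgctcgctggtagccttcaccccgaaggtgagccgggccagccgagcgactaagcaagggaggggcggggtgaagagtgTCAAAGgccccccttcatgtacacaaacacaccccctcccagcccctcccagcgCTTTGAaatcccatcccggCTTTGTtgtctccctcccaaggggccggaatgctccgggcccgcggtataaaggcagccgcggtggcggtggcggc
RNF43: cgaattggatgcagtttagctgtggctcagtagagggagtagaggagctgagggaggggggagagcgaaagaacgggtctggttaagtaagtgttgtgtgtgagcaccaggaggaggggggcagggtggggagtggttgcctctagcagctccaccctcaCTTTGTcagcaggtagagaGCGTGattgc
The DKK1 window of 300 bases (250 before the start and 50 after it) held 3 TCF/LEF matches, beginning at bases -149, -95 and -76, and no HIF core match. Of 35114 windows of that length, 26.2% held at least 1 TCF/LEF match, 5.33% at least 2 and 0.886% at least 3. The RNF43 window of the printed run held 1 TCF/LEF match at -90 and 1 HIF core match at -71, and the other RNF43 window 1 TCF/LEF match at -135 and no HIF core match. For comparison, 48.4% of all windows held at least 1 HIF core match. Of 2 TCF7 windows, 1 held 2 TCF/LEF matches and the other none, and the WNT10A and LEF1 windows held none of either kind. WNT7A and 1 of 2 WNT5A windows each held 1 HIF core match. Entries were matched for 7 of the 10 genes, and DKK3, WNT7B and AXIN2 had none. A match shows letters in a window and is no evidence of binding.

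Total counts were between 21845676 and 29406061 per library, and 3 counts, taken as the floor, equal 0.102 to 0.137 CPM, the usual unit of counts relative to the library total. Replicates of every group differed by more than counting noise (chi-square per degree of freedom 1.84, 2.08, 2.03 and 4.59), with the widest difference in the group given oxamate and NALA. The summed level of 6 hypoxia-responsive genes was 109.5 and 122.1 CPM in normoxia, 9011 and 9009 in hypoxia, 1038 and 1057 under oxamate, and 4323 and 4527 with NALA added, with EGLN3, one of the 6, at or under 0.0458 CPM throughout. Most of the sum was NDRG1 in hypoxia (8081 and 8054 CPM) and with NALA added (3263 and 3412). NDRG1, CA9, ANKRD37 and BNIP3 were lower under oxamate than in hypoxia, and CA9 stayed low with NALA added (15.47 and 17.88 CPM). ADM went the other way, from 419.1 and 429.6 CPM in hypoxia to 647.2 and 668.6 under oxamate and 914.6 and 965 with NALA added. The 10 squamous epithelial markers summed to between 2911 and 4291 CPM in every library, with SOX2 at or under 0.446 CPM. The largest part was KRT5 (1065 to 3066 CPM), and single markers moved apart. SFN was at 484 and 475.2 CPM in hypoxia and at 94.64 and 93.33 under oxamate. TP63 and CDH1 were highest in hypoxia, where KRT5 was lowest. Leukocyte markers (3 of 8 at 0 in all libraries) summed to at most 7.54 CPM, most of it CSF1R (at most 6.13). Fibroblast markers (4 of 8 at 0) summed to at most 8.97, nearly all of it COL1A1, and endothelial markers (1 of 6 at 0) to at most 2.45. All 3 sums were highest in hypoxia without oxamate (7.28 and 7.54 CPM for leukocyte, 8.69 and 8.97 for fibroblast, 2.45 and 1.78 for endothelial markers, the last beside at most 1.67 elsewhere), and their part in the results was not tested.

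DKK1 (ENSG00000107984, chr10:52314296-52318042, plus strand, protein coding) had the widest range over the 4 groups of the 7 tested members, although RNF43 differed more when NALA was added to oxamate. Against normoxia, RNF43, WNT7B and DKK3 differed more than DKK1 with oxamate, and WNT7B and WNT7A with oxamate and NALA. The level of DKK1, in CPM of the TMM-scaled library total, was 112 and 114 CPM in normoxia and 6.18 and 6.09 CPM in hypoxia. With oxamate in hypoxia it was 69.3 and 72.2 CPM, and with NALA added it was 186 and 182 CPM. With 2 libraries a group, a lack of overlap is weak evidence of a difference, for DKK1 and for the members below. Its share over all genes was not counted, so it is given as description only. The DKK1 libraries of the 4 groups did not overlap, and the order was hypoxia, oxamate, normoxia, and oxamate with NALA. These levels rest on 182 and 173 reads in hypoxia and on at least 1785 reads in every other library, and the group means ± SD were 113 ± 1.19, 6.13 ± 0.0613, 70.8 ± 2.04 and 184 ± 3.07 CPM (n = 2 each).

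The fitted log2 fold change of DKK1 was -4.20 ± 0.06 (standard error) in hypoxia against normoxia, an 18.4-fold lower level. Against hypoxia it was 3.53 ± 0.06 higher with oxamate, or 11.5-fold, and 4.91 ± 0.06 higher with oxamate and NALA, or 30.0-fold. NALA on top of oxamate went with a further 1.38 ± 0.04. Against normoxia DKK1 was at -0.68 ± 0.04 with oxamate and at 0.70 ± 0.04 with oxamate and NALA. In bulk RNA, fewer cells expressing a gene and less RNA per cell cannot be told apart. Among the 15554 tested genes DKK1 was the 22nd lowest in hypoxia against normoxia, the 68th highest in oxamate against hypoxia and the 33rd highest in oxamate with NALA against hypoxia. These comparisons share libraries, so the ranks are not independent of each other.

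**Figure D1:**
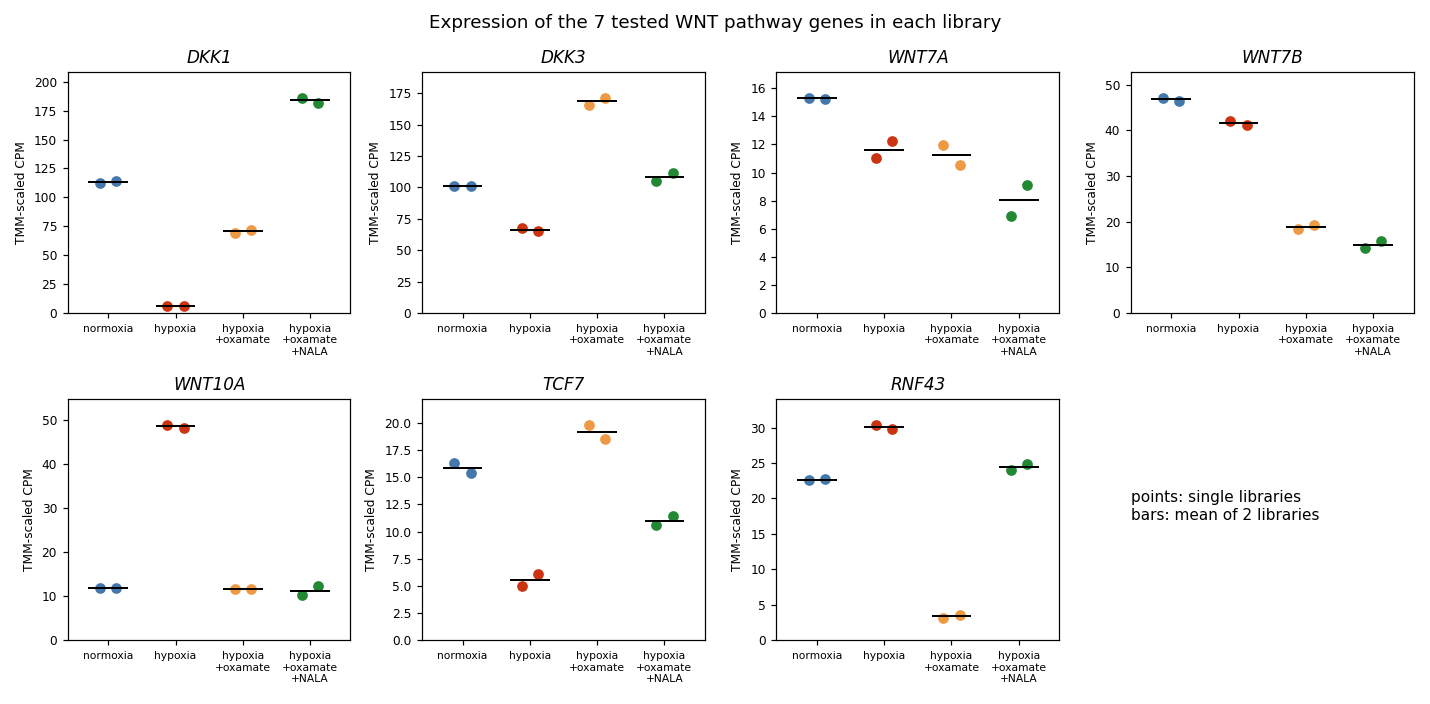
TMM-scaled CPM (vertical axis, linear from 0) of the 7 members that passed the expression filter, in each library of the 4 groups; points are single libraries and bars the mean of 2. DKK1 sits near 6 CPM in both hypoxia libraries and between 69.3 and 186 CPM in the others, and RNF43 is at 3.17 and 3.601 CPM in the 2 libraries with oxamate alone.

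DKK3 (ENSG00000050165, chr11:11963106-12009769, minus strand) is a divergent member of the Dickkopf family whose link to WNT receptors is less settled. It measured 101 and 102 CPM in normoxia, 67.5 and 65.3 in hypoxia, 166 and 171 under oxamate, and 105 and 112 with oxamate and NALA. No groups overlapped, and hypoxia was again the lowest group, but here oxamate alone was the highest. The log2 fold change was -0.61 ± 0.04 in hypoxia against normoxia, 1.34 ± 0.04 with oxamate against hypoxia, and -0.64 ± 0.04 when NALA was added to oxamate. DKK1 and DKK3 thus moved the same way in the first 2 of these comparisons and opposite ways in the last. With oxamate and NALA against hypoxia DKK3 was 0.71 ± 0.04 higher, which upper quartile scaling moved to 0.45.

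Among the ligands, WNT10A (ENSG00000135925, chr2:218880363-218899581, plus strand), an epithelial WNT of skin and its appendages, was high in 1 group only. It measured 48.8 and 48.2 CPM in hypoxia, 11.8 and 11.9 in normoxia, 11.7 and 11.7 with oxamate, and 10.2 and 12.3 with oxamate and NALA. The libraries with oxamate and NALA overlapped both those with oxamate alone and those in normoxia. The means of normoxia and of both oxamate groups, which were also kept in hypoxia, lay between 11.2 and 11.9 CPM. This nearness depends on the TMM scaling, with factors of 1.15 and 1.151 in normoxia and 0.8787 to 0.9014 in the oxamate groups. The log2 fold change was 2.03 ± 0.08 in hypoxia against normoxia and -2.05 ± 0.08 with oxamate against hypoxia. Addition of NALA left the level at -0.05 ± 0.10 relative to oxamate, and this value was 0.08 without the first NALA library, so no direction was read.

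WNT7B (ENSG00000188064, chr22:45920362-45977129, minus strand), a ligand of lung and kidney development that is also made by many carcinomas, followed another order. It measured 47.1 and 46.5 CPM in normoxia, 41.97 and 41.2 in hypoxia, 18.4 and 19.4 under oxamate, and 14.2 and 15.7 with oxamate and NALA. The 4 groups did not overlap, and both oxamate groups were below both others. The log2 fold change was -1.14 ± 0.07 with oxamate against hypoxia, -1.47 ± 0.07 with oxamate and NALA against hypoxia, and -0.33 ± 0.08 for NALA added to oxamate (-0.52 with upper quartile scaling). The difference between hypoxia and normoxia was small, at -0.17 ± 0.06. That call was lost with upper quartile scaling (-0.07), with DESeq2 (-0.17), without the first normoxia library (-0.17) and without the second hypoxia library (-0.16).

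WNT7A (ENSG00000154764, chr3:13816258-13880121, minus strand), a ligand closely related to WNT7B, varied least of the tested members. It measured 15.3 and 15.2 CPM in normoxia, 11.03 and 12.2 in hypoxia, 11.96 and 10.6 under oxamate, and 6.91 and 9.13 with oxamate and NALA. The hypoxia and oxamate libraries overlapped, while normoxia lay above and oxamate with NALA below both. The log2 fold change was -0.39 ± 0.11 in hypoxia against normoxia. For oxamate against hypoxia it was -0.05 ± 0.11 and took the other sign with RLE scaling (0.04). For NALA added to oxamate it was -0.48 ± 0.12, and without the first NALA library -0.30. Against hypoxia, oxamate with NALA gave -0.52 ± 0.12, and without that library -0.34.

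RNF43 (ENSG00000108375, chr17:58352500-58417595, minus strand), which marks Frizzled receptors for removal, stood out by its low level with oxamate alone. It measured 22.6 and 22.7 CPM in normoxia, 30.4 and 29.8 in hypoxia, 3.17 and 3.601 under oxamate, and 24.0 and 24.9 with oxamate and NALA. The oxamate libraries held 82 and 89 reads of the gene and every other library at least 473. No groups overlapped, but the means of normoxia and of oxamate with NALA were within a ratio of 1.08 (log2 fold change 0.11 ± 0.07). This nearness and its direction depend on the TMM scaling, with factors of 1.15 and 1.151 in normoxia and 0.9009 and 0.9014 with NALA. They were not repeated with other scalings. The log2 fold change was -3.15 ± 0.10 with oxamate against hypoxia, an 8.88-fold lower level, and 2.85 ± 0.10 when NALA was added, or 7.23-fold higher. In hypoxia against normoxia it was 0.41 ± 0.07. With oxamate and NALA against hypoxia it was -0.30 ± 0.07, or -0.56 with upper quartile scaling.

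TCF7 (ENSG00000081059, chr5:134114711-134151865, plus strand) encodes TCF1, a DNA-binding partner of beta-catenin. It measured 16.3 and 15.4 CPM in normoxia, 5.02 and 6.12 in hypoxia, 19.8 and 18.5 under oxamate, and 10.6 and 11.5 with oxamate and NALA. Its groups did not overlap, and hypoxia was lowest and oxamate highest, the same end points as for DKK3. The step from normoxia to oxamate was small (0.27 ± 0.09), depends on the TMM scaling and was not repeated with other scalings. The log2 fold change was -1.51 ± 0.11 in hypoxia against normoxia, 1.78 ± 0.11 with oxamate against hypoxia, -0.80 ± 0.10 for NALA added to oxamate, and 0.99 ± 0.12 with oxamate and NALA against hypoxia.

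Some members share exon bases with neighbours, and the sources used here do not state whether reads were counted by strand. TCF7 shares 210 exon bases (2.09% of its own) with SKP1 on the opposite strand, whose level was 1377% of that of TCF7. SKP1 moved by 0.07 ± 0.04, 0.77 ± 0.04 and -0.32 ± 0.03 in hypoxia against normoxia, oxamate against hypoxia, and NALA added to oxamate. RNF43 shares 1.91% of its exon bases with SUPT4H1 on the same strand, at 332% of its level, and SUPT4H1 moved by -0.35 ± 0.05, 0.72 ± 0.05 and 0.19 ± 0.04 in the same comparisons. The other partners of RNF43 (TSPOAP1-AS1 and the readthrough gene AC004687.2, which covers 57.64% of its exon bases) and the partner of DKK1 (PRKG1-AS1, opposite strand, 9.61% of its exon bases) were at under 1% of the level of the member. How far shared reads touch TCF7 or RNF43 was not tested.

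The remaining members were near or below the floor of 3 counts. AXIN2 (ENSG00000168646, chr17:65528563-65561647, minus strand), a scaffold of the destruction complex and a widely used reporter of canonical signalling, had 8 and 7 reads in normoxia, 3 and 5 in hypoxia, 2 and 0 under oxamate, and 3 and 0 with oxamate and NALA. Its level in normoxia was 6.48 times that with oxamate (95% exact binomial counting interval 1.51 to 58.4, 15 against 2 reads) and 3.78 times that with oxamate and NALA (1.07 to 20.4, 15 against 3 reads). Against hypoxia the ratio was 1.86 (0.738 to 5.05, 15 against 8 reads), which is within counting error. These intervals cover counting error only.

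LEF1 (ENSG00000138795, chr4:108047545-108168956, minus strand), a DNA-binding partner of beta-catenin related to TCF7, had 2 reads in each hypoxia library, 2 in the second NALA library and 0 elsewhere. WNT5A (ENSG00000114251, chr3:55465715-55490539, minus strand), the main ligand of the beta-catenin-independent branch, had 2 and 3 reads in normoxia, 2 and 3 in hypoxia, 0 in each oxamate library, and 0 and 1 with NALA added. LEF1 and WNT5A were not tested at these few reads, and no counting interval was computed for them. Whether either differed between groups is therefore not known, and no fold is given.

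**Figure D2:**
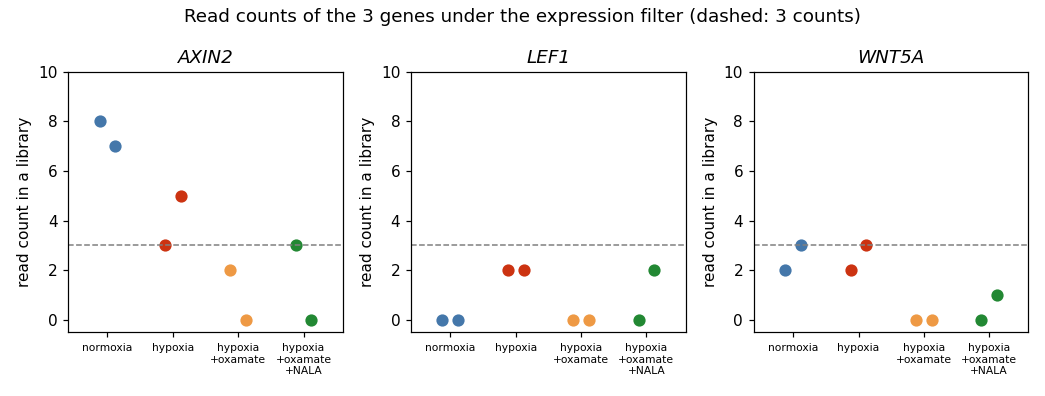
Read counts (vertical axis, raw counts per library) of AXIN2, LEF1 and WNT5A in the 8 libraries, with a dashed line at 3 counts. AXIN2 reaches 8 reads in normoxia, and LEF1 and WNT5A never pass 3 reads.

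Counted over the 7 tested members, 2 were higher and 5 lower in hypoxia against normoxia at an adjusted p under 0.05 (edgeR quasi-likelihood test with Benjamini-Hochberg adjustment over all tested genes), where 36.7% of all genes were higher and 36.8% lower, 73.5% together. With oxamate against hypoxia 3 were higher, 3 lower and 1 did not pass, beside 35.7% higher and 44.8% lower of all genes, 80.5% together. With NALA added to oxamate 2 were higher, 4 lower and 1 did not pass, beside 33.2% and 31.7%, 64.9% together. With oxamate and NALA against hypoxia 3 were higher and 4 lower, beside 38.5% and 40.2%, 78.6% together. Against normoxia, 2 were higher and 4 lower with oxamate, beside 31.9% and 40.1% of all genes (72.0% together), and 2 were higher and 3 lower with oxamate and NALA, beside 35.9% and 36.8% (72.7% together). DKK3, counted as higher with oxamate and NALA, was at only 0.10 ± 0.04, a value not repeated with other scalings. The members were chosen on these comparisons, and most genes of the line passed in each, so nothing is read from these counts. All 7 passed in hypoxia against normoxia and in oxamate with NALA against hypoxia. The values that did not pass were WNT7A in oxamate against hypoxia, WNT10A for NALA added to oxamate and against normoxia in both oxamate groups, and RNF43 for oxamate with NALA against normoxia.

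The members also differed in how far they ranged. The log2 distance between the highest and the lowest group mean was 4.89 for DKK1, 92nd of the 15554 tested genes, and 3.13 for RNF43, 1067th. It was 2.11 for WNT10A, 1.77 for TCF7, 1.64 for WNT7B, 1.34 for DKK3 and 0.94 for WNT7A, beside a median of 1.35 over all tested genes. DKK3 and WNT7A therefore lay below the median gene of this experiment. The lowest group was hypoxia for DKK1, DKK3 and TCF7, oxamate for RNF43, and oxamate with NALA for WNT7A, WNT7B and WNT10A, the last overlapping with oxamate alone. The highest group was normoxia for WNT7A and WNT7B, hypoxia for WNT10A and RNF43, oxamate for DKK3 and TCF7, and oxamate with NALA for DKK1.

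**Figure D3:**
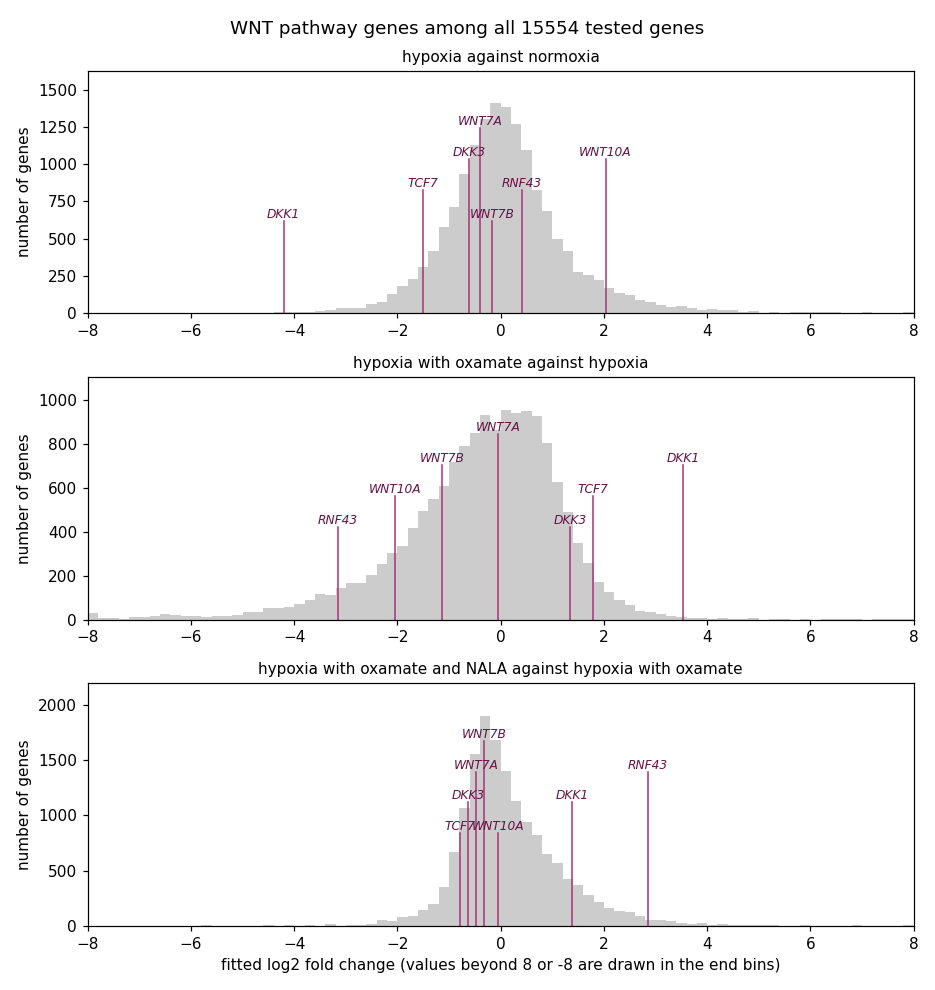
Distribution of fitted log2 fold changes of all 15554 tested genes (histograms, number of genes on the vertical axis) in hypoxia against normoxia, oxamate against hypoxia, and NALA added to oxamate, with vertical lines at the 7 tested members. DKK1 lies at -4.20, 3.53 and 1.38, and RNF43 at 0.41, -3.15 and 2.85.

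Levels of different members can be set side by side only per length of exon. Per kilobase of annotated exon, DKK1 was the most abundant member in normoxia at 51.3 CPM per kb and in the group with oxamate and NALA at 83.4. In hypoxia it was at 2.78 CPM per kb, below WNT10A at 14.2, DKK3 at 13.1, WNT7B at 8.23 and RNF43 at 4.01. With oxamate alone DKK3, at 33.3, and DKK1, at 32.1 CPM per kb, were the top members, followed by WNT7B at 3.74 and WNT10A at 3.43. RNF43 there was at 0.451 CPM per kb, the lowest of the tested members. By group means, the most abundant tested WNT ligand among the members was WNT7B in normoxia (9.27 CPM per kb) and with oxamate. It was WNT10A in hypoxia and with oxamate and NALA (3.29, beside 2.97 for WNT7B and 1.75 for WNT7A). In that last group the order rests on the exon lengths, since WNT7B was at 15.0 CPM and WNT10A at 11.2. The lengths count every annotated exon, whichever transcripts were expressed.

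The cell-surface partners of DKK1 were not among the 10 genes and were tested with edgeR, adjusted over all tested genes. They too were listed with earlier results of these libraries known, so their p-values are not independent of that choice. LRP5 and LRP6 are the co-receptors that DKK1 blocks, KREMEN1 and KREMEN2 form a complex with DKK1 and LRP6, and CKAP4 is a reported alternative DKK1 receptor. KREMEN2 measured 4.46 and 2.88 CPM in normoxia, 12.7 and 12.2 in hypoxia, 2.83 and 2.91 under oxamate, and 2.14 and 2.57 with oxamate and NALA. It was therefore highest in the group in which DKK1 was lowest, with a log2 fold change of 1.78 ± 0.16 in hypoxia against normoxia (adjusted p = 1.21e-09) and -2.12 ± 0.17 with oxamate against hypoxia (adjusted p = 1.19e-10). KREMEN1 rose by 0.86 ± 0.08 in hypoxia (adjusted p = 1.47e-09) and changed by -1.18 ± 0.08 with oxamate (adjusted p = 1.04e-11) and by a further -0.41 ± 0.10 when NALA was added (adjusted p = 0.000982).

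The co-receptors differed in their order of groups. LRP5 measured 82.5 and 79.4 CPM in normoxia, 108 and 105 in hypoxia, 83.1 and 86.2 under oxamate, and 59.1 and 63.1 with oxamate and NALA. It rose by 0.40 ± 0.04 in hypoxia (adjusted p = 2.37e-08), and it changed by -0.34 ± 0.04 with oxamate (adjusted p = 3.34e-07; -0.20 without the first oxamate library) and by -0.47 ± 0.05 with NALA added (adjusted p = 1.12e-08). LRP6 measured 29.6 and 28.01 CPM in normoxia, 17.8 and 19.0 in hypoxia, 17.4 and 16.2 under oxamate, and 28.2 and 27.2 with oxamate and NALA. It changed by -0.65 ± 0.07 in hypoxia (adjusted p = 3.23e-08) and by 0.72 ± 0.08 with NALA added (adjusted p = 2.34e-08), while oxamate against hypoxia did not pass (-0.13 ± 0.08, adjusted p = 0.13). CKAP4 changed by -1.04 ± 0.09 in hypoxia (adjusted p = 1.83e-09), 0.35 ± 0.10 with oxamate (adjusted p = 0.00341; 0.54 without the first oxamate library) and -0.65 ± 0.11 with NALA added (adjusted p = 1.81e-05).

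**Figure D4:**
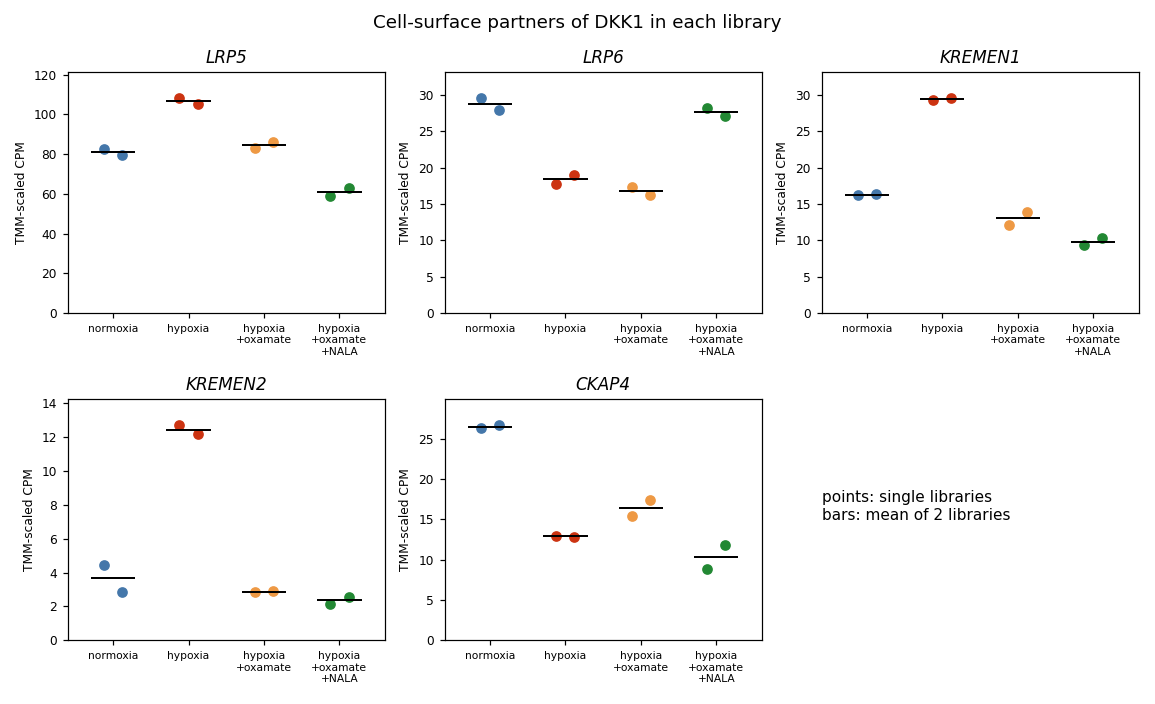
TMM-scaled CPM (vertical axes, linear from 0) of LRP5, LRP6, KREMEN1, KREMEN2 and CKAP4 in each library of the 4 groups; points are single libraries and bars the mean of 2. KREMEN1 and KREMEN2 are highest in hypoxia (KREMEN2 at 12.7 and 12.2 CPM), whereas CKAP4 is highest in normoxia and LRP6 overlaps between normoxia and oxamate with NALA.

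The rest of the pathway was read from a list of 113 genes in 8 roles that includes the 10 members. Of the 103 others, 65 could be tested. This list too was drawn up with earlier results of these libraries known. Its p-values (edgeR, adjusted over all tested genes) and shares called are not independent of that choice. Beyond a fixed set, many genes below were named for their large fold changes. No secreted antagonist other than DKK1 and DKK3 was tested: SFRP1, SFRP2, SFRP4 and WIF1 had 0 reads in all libraries, and DKK2 and DKK4 at most 1 read in any. LGR5, the stem-cell R-spondin receptor, had at most 3 reads, and ROR2, a WNT5A receptor, at most 6.

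In hypoxia against normoxia 25 of the 65 were higher, 33 lower and 7 did not pass (89.2% called, beside 73.5% of all genes), with a median of -0.22 beside 0.02 over all genes. Of all genes, 36.7% were higher and 36.8% lower, to be set beside each role below. The ligand WNT4 was higher (2.72 ± 0.29, adjusted p = 1.87e-08) and WNT3 lower (-1.40 ± 0.12, adjusted p = 6.56e-10). Both secretion genes were higher, PORCN, which attaches the lipid to WNTs, by 1.52 ± 0.06 (adjusted p = 3.16e-16) and the carrier WLS by 0.29 ± 0.04 (adjusted p = 7.07e-07). Of 12 receptors and co-receptors 4 were higher and 7 lower, with ROR1 at -2.03 ± 0.21 (adjusted p = 1.13e-08).

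Of 19 cytoplasmic genes in the same comparison, 7 were higher and 10 lower. APC was at -0.997 ± 0.0757 (adjusted p = 7.12e-11), beta-catenin itself (CTNNB1) at -0.47 ± 0.03 (adjusted p = 1.3e-11), and FRAT2, a GSK3-binding protein, at -1.98 ± 0.13 (adjusted p = 9.39e-12). Of 13 nuclear factors 7 were higher and 5 lower. The TCF family split, since TCF7L1 was higher (1.38 ± 0.14, adjusted p = 7.22e-09) and TCF7L2 higher (0.49 ± 0.08, adjusted p = 1.34e-05) while TCF7, a member, was lower. Of 9 target genes 3 were higher and 4 lower: CCND1, encoding cyclin D1, was at -2.66 ± 0.05 (adjusted p = 5.61e-17) and EPHB3 at 2.29 ± 0.15 (adjusted p = 3.56e-12).

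With oxamate against hypoxia 18 of the 65 were higher, 39 lower and 8 did not pass (87.7% called, beside 80.5% of all genes), with a median of -0.69 beside -0.20 over all genes. Of all genes, 35.7% were higher and 44.8% lower. Receptors were mostly lower, 9 of 12 against 1 higher, led by FZD7 (-2.81 ± 0.16, adjusted p = 1.99e-13). Nuclear factors were lower in 9 of 13 and higher in 2, including TCF7L1 (-1.37 ± 0.14, adjusted p = 8.4e-09), TCF7L2 (-1.73 ± 0.09, adjusted p = 1.45e-13) and the co-activator PYGO2 (-2.12 ± 0.08, adjusted p = 1.32e-16), again opposite to TCF7. LGR4, the R-spondin receptor that works with RNF43 and ZNRF3, was at -1.49 ± 0.08 (adjusted p = 4.63e-14), and ZNRF3, the closest relative of RNF43, was at -0.19 ± 0.09 (adjusted p = 0.0569). Of 9 target genes 3 were higher and 4 lower. Among the lower, EPHB3 was at -4.64 ± 0.20 (adjusted p = 1.7e-15), NKD1 at -1.77 ± 0.12 (adjusted p = 6.95e-12) and SOX9 at -0.95 ± 0.06 (adjusted p = 1.12e-12). Among the higher, CD44 was at 2.00 ± 0.03 (adjusted p = 6.55e-24) and CCND1 at 1.51 ± 0.06 (adjusted p = 1.07e-13). CTNNB1 changed by -0.23 ± 0.03 (adjusted p = 1.43e-06), which was -0.15 with RLE scaling and with DESeq2 and -0.13 with either oxamate library left out or with the groups fitted alone.

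When NALA was added to oxamate, 32 of the 65 were higher, 15 lower and 18 did not pass (72.3% called, beside 64.9% of all genes), with a median of 0.24 beside -0.02 over all genes. Of all genes, 33.2% were higher and 31.7% lower. With upper quartile scaling the split was 27 higher and 21 lower, and that of all genes 4150 and 6340 in place of 5160 and 4927. Cytoplasmic genes were higher in 14 of 19 and lower in 1, with FRAT2 at 3.63 ± 0.15 (adjusted p = 3.52e-15) and GSK3B at 0.63 ± 0.05 (adjusted p = 3.06e-10). Receptors were higher in 7 of 12 and lower in 3, with FZD7 at 1.55 ± 0.18 (adjusted p = 1.21e-07). LGR4 was 1.19 ± 0.08 higher (adjusted p = 1.59e-11), as RNF43 was, while ZNRF3 did not pass (-0.19 ± 0.10, adjusted p = 0.0998).

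In the same comparison TCF7L2 was 1.19 ± 0.10 higher (adjusted p = 7.35e-10), and SOX9, a transcription factor of epithelial progenitors, 2.32 ± 0.05 higher (adjusted p = 1.49e-19). WNT9A, a ligand, was 2.11 ± 0.23 higher (adjusted p = 4.31e-08), and CCND1 was at -1.49 ± 0.06 (adjusted p = 4.73e-13). CTNNB1 was 0.19 ± 0.03 higher (adjusted p = 4.47e-05), but its call was lost with either oxamate library left out (0.09 each) and with the stricter filter (0.07), and with upper quartile scaling the value was 0.00.

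With oxamate and NALA against hypoxia 21 of the 65 were higher, 31 lower and 13 did not pass (80% called, beside 78.6% of all genes), with a median of -0.30 beside -0.05 over all genes. Of all genes, 38.5% were higher and 40.2% lower. Upper quartile scaling gave 16 higher and 39 lower, and 4683 and 7693 over all genes in place of 5981 and 6246. Receptors were lower in 9 of 12, with FZD2 at -1.99 ± 0.09 (adjusted p = 1.29e-14), and nuclear factors in 8 of 13. KREMEN1 (-1.58 ± 0.09, adjusted p = 2.12e-13), KREMEN2 (-2.39 ± 0.18, adjusted p = 4.37e-11) and LRP5 (-0.80 ± 0.05, adjusted p = 3.76e-13) were lower where DKK1 was higher, and LRP6 was 0.59 ± 0.07 higher (adjusted p = 2.22e-07). The call of CKAP4 (-0.30 ± 0.11, adjusted p = 0.0176) was lost with DESeq2 (-0.28), without either hypoxia library (-0.30 each) and without the first NALA library (-0.11), and without the second NALA library it was -0.54. CCND1 did not pass (0.02 ± 0.06, adjusted p = 0.768), with means of 51.1 CPM in hypoxia and 51.5 with oxamate and NALA.

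**Figure D5:**
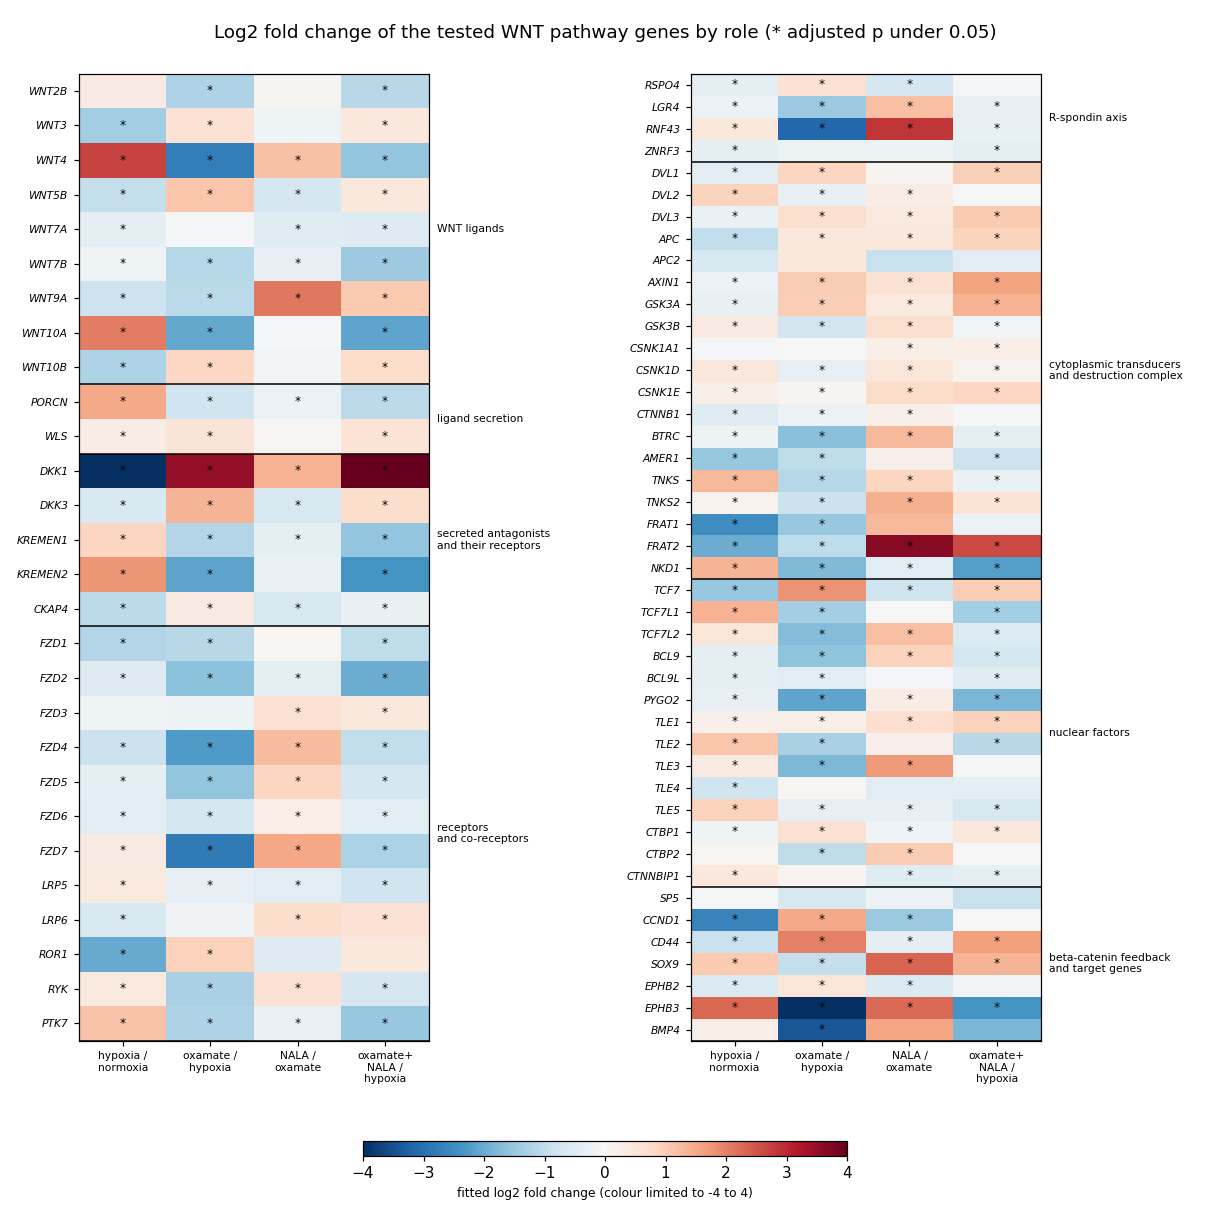
Fitted log2 fold changes (colour, limited to -4 to 4) of the 72 tested WNT pathway genes, members included, grouped by role in 4 comparisons; a star marks an adjusted p under 0.05. DKK1 and RNF43 carry the deepest colours of the antagonist and R-spondin rows, and receptors are mostly lower with oxamate against hypoxia (9 of 12, beside 44.8% of all genes).

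The 5 genes whose pattern was most like that of DKK1 over the 8 libraries, by Pearson correlation of log2 CPM, were NIP7, AEN, TMEM33, DDX20 and SPATA5L1, at 0.9994, 0.9991, 0.9981, 0.997 and 0.9954. The 8 points share 4 group means, so the correlations mostly describe the order of the groups. AEN, an exonuclease gene induced by p53, had group means of 47.0, 2.64, 30.9 and 72.7 CPM in normoxia, hypoxia, oxamate, and oxamate with NALA. NIP7, a ribosome biogenesis factor, had 167, 37.0, 136 and 213 CPM in the same order, and none of the 5 is a gene of the WNT list.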

How the data were processed

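RNA-seq of 8 KYSE150 libraries was analysed from 1 table of whole-number read counts per gene, as deposited by the authors, without normalization. Per the submitters' processing notes, the tools were FastQC 0.11.9, STAR 2.7.8a and RSEM 1.3.3 with builds named as hg38 and GRCh38. For strandedness and annotation release, nothing is given in the sources used here. RSEM estimates may have been rounded before deposit. Groups follow the sample titles.

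Genes were filtered with filterByExpr (minimum count 10), scaled by TMM and fitted in R 4.3.3 with edgeR 4.0.16 (limma 3.58.1), as 1 robust quasi-likelihood model over 8 libraries (1 mean per group, leaving 4 residual degrees of freedom). Two-sided quasi-likelihood F tests were adjusted by Benjamini-Hochberg over 15554 genes, and calls were made at an adjusted p under 0.05. Standard errors were derived from the F statistic. The method was tested on simulated data.

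Members and lists were chosen with earlier results of these data known. Named beyond the 10 members were 15 fixed pathway genes where tested, up to 2 called genes per role and comparison with the largest fold change (mean log2 CPM of at least 0), and the 5 genes most correlated with DKK1 (mean log2 CPM of at least 1, prior count 2); some of these were left unnamed. CCND1 was followed beyond the comparison in which that rule named it, and SKP1 and SUPT4H1, which share exons with members, were added, after their values were seen. Positions are from GENCODE release 29, which held all 10 members, and promoters from RefSeq. Alternatives were RLE and upper quartile scaling, no filter, DESeq2 1.42.0, a filter at 50 counts in 2 libraries, a replicate block, fits of 2 groups alone, and leaving out each library.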

Additional observations from a re-analysis of the deposited data

How the results depend on the processing

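The comparisons of the oxamate groups against normoxia were not repeated with the alternatives, which cover the other comparisons only. Of 308 alternative values of the members, 297 kept their direction and side of the threshold, 4 lost the call (all WNT7B in hypoxia against normoxia), 1 gained it (WNT10A for NALA added to oxamate, -0.24 with upper quartile scaling) and 6 changed sign. Of 1078 alternative values of the other named pathway genes, 1033 kept both, 20 lost the call, 9 gained it and 16 changed sign. All 176 alternative counts of called genes stayed within 1.5 times the reported ones. Counts by role were not repeated with the alternatives. Values that changed sign were all small. WNT7A in oxamate against hypoxia was 0.0366 with RLE scaling, 0.0357 with DESeq2, 0.0583 with the groups fitted alone, and -0.1181 to 0.1458 with single libraries left out. For LRP6 in oxamate against hypoxia leaving out single libraries gave -0.1724 to 0.0245 (0.0245 without the second oxamate library), and for WNT10A with NALA added to oxamate -0.19 to 0.075 (0.075 without the first NALA library). With NALA added to oxamate, CTNNB1 was -0.0019 with upper quartile scaling. In that comparison TCF7L1 was -0.0514 with RLE, -0.1865 with upper quartile scaling, -0.1125 with the stricter filter, -0.0499 with DESeq2 and -0.1016 to 0.0754 with single libraries left out, against 0.00 as reported. WLS was -0.0239, -0.1589, -0.0853, -0.0236 and -0.0949 to 0.0808 in the same order, against 0.03, and it passed as lower with upper quartile scaling (adjusted p = 0.0011 by edgeR) and with the stricter filter (0.0468). The cause of these changes was not tested. Upper quartile scaling moved the median of all genes by 0.11 in hypoxia against normoxia, by -0.19 for NALA added to oxamate and by -0.26 for oxamate with NALA against hypoxia, and the stricter filter by -0.12 for NALA added to oxamate. In oxamate against hypoxia the groups fitted alone moved it by 0.10 and leaving out an oxamate library by 0.11. With the replicate block no member or other named pathway gene changed its call (28 and 98 values), and the counts of called genes went from 5702 to 5620 higher and 5727 to 5681 lower in hypoxia, 5560 to 5527 and 6965 to 6936 with oxamate, 5160 to 5111 and 4927 to 4870 with NALA added, and 5981 to 5961 and 6246 to 6185 with both against hypoxia. Same-numbered libraries deviated together with correlations of -0.244 to 0.117 over 6 pairs of groups, only 1 of them over 0.1, so the numbers were not taken to pair the libraries. Depth limits AXIN2, LEF1 and WNT5A, and 2 libraries a group limit every test.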
